A study of Mus musculus with 24 samples.

Results

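The genes described here are the collagen chain genes, taken as every gene of the count table whose symbol is Col, a number, the letter a and a number. They numbered 44 of 41388 genes, and all 44 were placed in the annotation. By the kind of molecule they build, 11 encode fibrillar chains, 6 basement membrane chains, 6 microfibrillar chains, 9 chains of fibril-associated collagens with interrupted helices (FACIT), and 12 other chains. Collagens are rope-like proteins wound from alpha chains that are made in the endoplasmic reticulum, secreted as procollagens, trimmed and crosslinked outside the cell. Fibrillar chains give tissue its tensile strength, FACIT chains sit on the surface of fibrils, microfibrillar type VI chains link fibrils to cells, and type IV chains form the sheet of basement membranes. Fibroblasts, osteoblasts and vessel wall cells are their textbook producers, whereas macrophages are better known for taking up and degrading collagen.

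The libraries came from macrophages sorted by flow cytometry from the dura mater, the tough sheath that lines the skull, or from the diaphragm, the breathing muscle below the lungs. Per the labels, the mice of both groups were C57BL/6, wild type, 17 weeks old and in a steady state, although the series title speaks of RAG-1 deficient mice that received T cells. The labels name 3 macrophage subsets in each tissue (C1, C2 and C3), and no column of the table could be tied to one of them. A dural column is named by a number (1, 3 or 4) with P4, P5 or P6, called its mark here, and a diaphragm column by a number alone. No source used here gives the meaning of marks or numbers. The 16 libraries used were 9 from dura, 3 for each mark, and 7 from diaphragm, here described in the number sets 1 and 7, 2 and 8, and 3, 6 and 9. Dural values are given in the order of numbers 1, 3 and 4. No label states that the libraries came from separate animals, so p-values measure the spread of these libraries alone, which may be technical.

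Dural libraries held 10457920 to 24077834 counts and diaphragm libraries 11053351 to 30132295. Levels are CPM, counts per 1000000 counts of a library after TMM scaling. The 12 macrophage markers, which include Csf1r, C1qa and Lyz2, summed to between 24310 and 32900 CPM in every library, and none was at 0. Their sum was lower in P4 (24310 to 25430 CPM) than in P5 and P6 (28840 to 30420). In diaphragm it was 24420 and 25310 CPM in numbers 1 and 7 and 27890 to 32900 in the others. The summed collagen level was far more uneven. It was 3962, 5102 and 2760 CPM in the P4 libraries, 758, 1021 and 819 in P5, and 580, 647 and 520 in P6. In diaphragm it was 16700 CPM in number 1 and 8001 in number 7, against 573 to 1115 in the other 5 libraries. Of the 44 members, 24 had their highest level in diaphragm number 1, and 16 members averaged at least 20 CPM over all libraries.

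**Figure D1:**
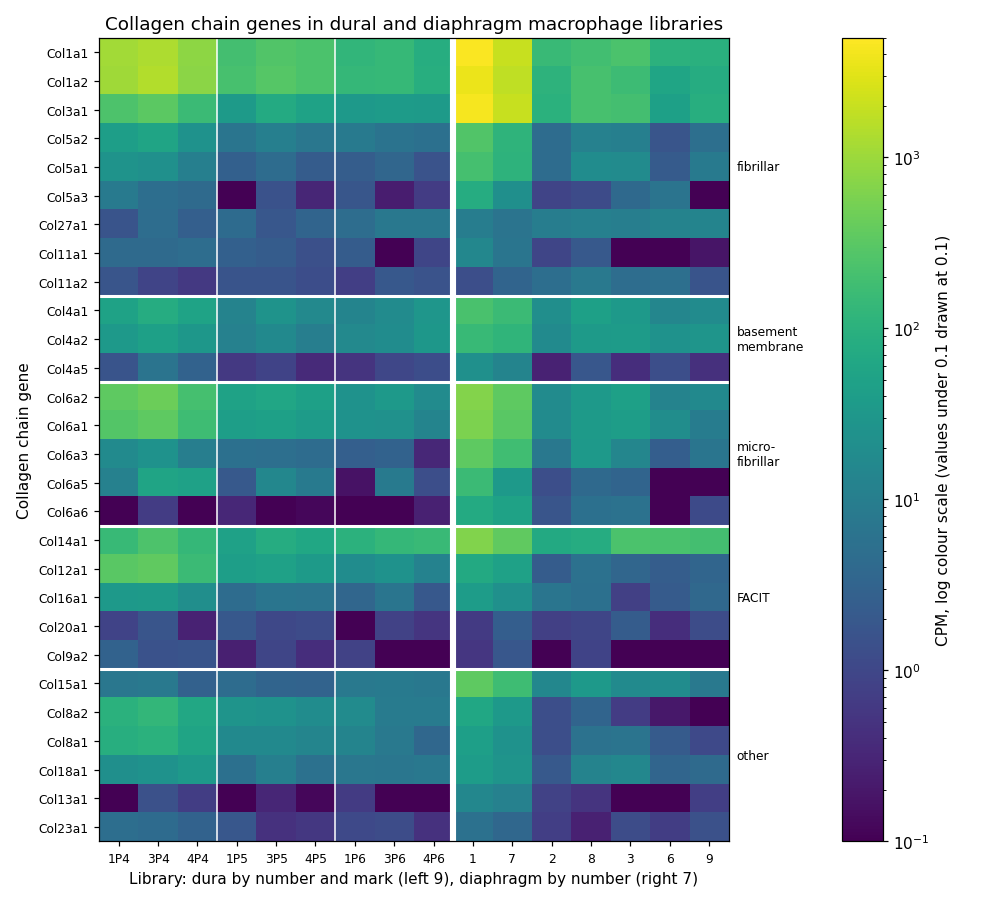
Level of the 28 collagen chain genes tested between tissues (rows, by chain group) in each library (columns: 9 dural, then 7 diaphragm), as CPM on a log colour scale with values under 0.1 drawn at 0.1. The P4 libraries of dura and numbers 1 and 7 of diaphragm are brighter than the others in most rows, and Col27a1 does not follow that pattern.

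The genes lie on many chromosomes of the GRCm38 build. Col1a1 lies at chr11:94936224-94953042 on the plus strand, Col1a2 at chr6:4504814-4541544 on the plus strand, and Col12a1 at chr9:79598991-79718831 on the minus strand. Col3a1 (chr1:45311538-45349706, plus) and Col5a2 (chr1:45374321-45503282, minus) are neighbours on chromosome 1. Col6a1 (chr10:76708792-76726168) and Col6a2 (chr10:76595762-76623630) are neighbours on the minus strand of chromosome 10. Col4a1 and Col4a2 lie head to head on chromosome 8 and their exons overlap. The largest overlap with any 1 annotated gene is 0.29% of the Col4a1 exons and 0.65% of the Col4a2 exons. The kit was unstranded, so reads in such overlaps cannot be assigned to a strand.

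The sequences just upstream of 4 members are shown because their levels relative to Col1a1 separated the tissues, Col8a1 and Col8a2 toward dura and Col3a1 toward diaphragm, and because Col15a1 had a large tissue difference. Each is the 100 bases before the RefSeq transcription start in GRCm38.p6, 5′ to 3′ on the strand of the gene, with matches to GGGCGG (the GC box), CCAAT (the CCAAT box) or TATAAA (the TATA box) on either strand in capitals. The windows are chr16:57754738-57754837 (minus strand), chr4:126286694-126286793 (plus), chr1:45311438-45311537 (plus) and chr4:47207912-47208011 (plus), in the order printed.
Col8a1: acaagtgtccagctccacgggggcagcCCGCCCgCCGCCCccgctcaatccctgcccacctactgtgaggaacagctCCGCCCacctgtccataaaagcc
Col8a2: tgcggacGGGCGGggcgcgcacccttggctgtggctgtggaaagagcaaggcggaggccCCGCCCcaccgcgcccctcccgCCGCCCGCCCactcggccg
Col3a1: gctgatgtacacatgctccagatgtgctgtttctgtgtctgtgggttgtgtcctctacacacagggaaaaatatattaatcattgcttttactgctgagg
Col15a1: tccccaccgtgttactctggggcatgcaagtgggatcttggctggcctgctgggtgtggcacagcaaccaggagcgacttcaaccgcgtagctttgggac

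The Col8a1 window held 3 matches to GGGCGG and the Col8a2 window 4, of which 2 overlap, and neither held the other motifs. The Col3a1 and Col15a1 windows held none of the 3 motifs. Of 32851 mouse promoters cut in the same way, 24.7% held GGGCGG, 18.9% CCAAT and 5.6% TATAAA. Promoters were found for 35 of the 44 members, and 18 of those genes held GGGCGG, 4 CCAAT and 2 TATAAA. These are matches of letters, not binding sites.

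Among dural libraries, collagen chains were lower in P5 than in P4. Of the 28 members tested, 16 fell and none rose, with 0 higher also at an unadjusted p under 0.05, by DESeq2 and by limma-voom, against 4.26% of all 13239 genes tested that fell, 3.09% that rose and 7.35% that changed in either direction (edgeR's quasi-likelihood test, Benjamini-Hochberg adjusted p under 0.05). The median log2 fold change was -2.08 over the tested members and -0.01 over all genes. The fall was found in each chain group: 5 of 9 fibrillar chains, 3 of 3 basement membrane chains, 2 of 4 microfibrillar chains, 3 of 6 FACIT chains and 3 of 6 other chains. In libraries of bulk RNA, fewer cells of a collagen-making type and less collagen RNA per cell cannot be told apart. When the marks were fitted together with the diaphragm libraries, which share in the estimate of spread, 0 members passed in any comparison of marks (for Col1a1 in P5 against P4, a log2 difference of -2.16 and an adjusted p of 0.97 by edgeR).

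The fibrillar chains were the most abundant. Col1a1, the main chain of type I collagen, was at 1099, 1329 and 783 CPM in P4, at 199, 270 and 236 in P5, and at 123, 138 and 86.0 in P6. The groups do not overlap, and each P6 library lies below each P5 library. Col1a1 fell by 2.18 ± 0.21 (log2, SE) from P4 to P5, 4.54-fold, with an adjusted p of 9.84e-05 by edgeR. Its partner chain Col1a2 had almost the same values, 1080, 1445 and 757 CPM in P4 and 219, 286 and 237 in P5, and fell by 2.14 ± 0.23. Col3a1, the chain of type III collagen found with type I in pliable tissue, was at 248, 330 and 157 CPM in P4 and 36.9, 74.8 and 50.1 in P5, and fell by 2.18 ± 0.27 (adjusted p = 0.000494, edgeR). The type V chains that regulate fibril diameter were lower in level and fell as much. Col5a2 averaged 41.1 ± 15.1 CPM in P4 and 8.27 ± 2.12 in P5 (SD, n = 3 each), and Col5a1 averaged 19.8 ± 8.1 and 3.25 ± 1.25. Col27a1, a fibrillar chain known from cartilage, did not follow: it was at 1.65, 4.82 and 2.60 CPM in P4 and 4.48, 1.90 and 3.22 in P5, so the marks overlapped, with a log2 difference of 0.07 ± 0.45 (SE).

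Chains of type VI collagen fell with the fibrillar ones. Col6a2 was at 337, 437 and 207 CPM in P4 and at 51.1, 60.6 and 47.1 in P5, and fell by 2.62 ± 0.26 (log2, SE). Col6a1, with which it assembles, was at 271, 347 and 172 CPM in P4 and 42.7, 46.8 and 38.1 in P5, and fell by 2.63 ± 0.26. All P4 libraries were above all P5 libraries for both genes, by over 100 CPM. Col6a3, the long chain of the same microfibrils, was at 17.9, 24.9 and 10.1 CPM in P4 and 5.33, 5.14 and 4.56 in P5. Its difference of -1.81 ± 0.51 did not pass (adjusted p = 0.0513, edgeR), and passed with DESeq2 (adjusted p = 0.0049).

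Among FACIT chains, Col12a1, which binds type I fibrils in dense connective tissue, was at 316, 351 and 162 CPM in P4 and at 43.7, 48.8 and 36.4 in P5. It fell by 2.68 ± 0.28 (log2, SE), 6.42-fold (adjusted p = 0.000177, edgeR). Col16a1 was at 32.9, 35.6 and 20.9 CPM in P4 and 4.57, 6.57 and 6.35 in P5, with no overlap. The network-forming type VIII chains, known from vessel walls and the cornea, moved with them. Col8a2 was at 99.9, 129 and 66.6 CPM in P4 and 27.0, 24.9 and 19.3 in P5. Col8a1 was at 88.5, 99.0 and 55.5 CPM in P4 and 17.2, 16.9 and 13.9 in P5, so both genes separated the marks.

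The basement membrane chains were lower in level. Col4a1 was at 52.0, 81.6 and 54.2 CPM in P4 and at 12.5, 25.8 and 16.1 in P5, and Col4a2 at 32.9, 46.1 and 30.7 against 11.4, 16.9 and 10.2. Both chains belong to the type IV collagen of most basement membranes, and both separated P4 from P5. Col4a5, a minor type IV chain, was at 1.65, 6.38 and 3.04 CPM in P4 and 0.592, 0.870 and 0.366 in P5. Its fall (adjusted p = 0.0393, edgeR) no longer passed without any 1 of the libraries 3P4, 4P4, 1P5, 3P5 and 4P5, with adjusted p from 0.066 to 0.23, nor by limma-voom (adjusted p = 0.054).

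**Figure D2:**
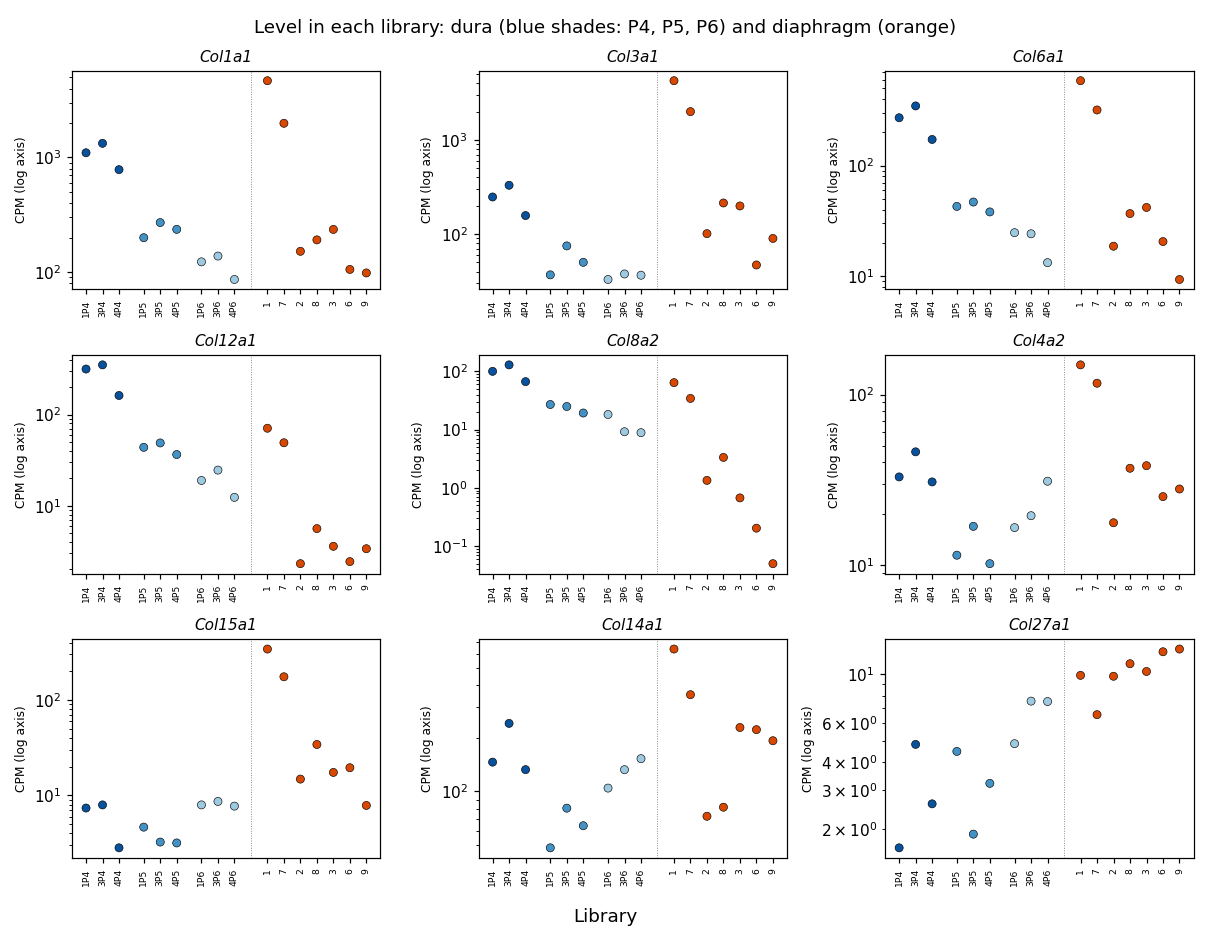
CPM on log axes of 9 collagen chain genes in each library, dura in blue shades (P4, P5, P6) and diaphragm in orange; the value of 0 for Col8a2 in diaphragm number 9 is drawn at 0.05. Col1a1, Col6a1, Col12a1 and Col8a2 step down from P4 to P5 and to P6, while Col14a1 and Col4a2 are higher in P6 than in most P5 libraries and Col27a1 is higher in most diaphragm libraries than in dura.

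P6 was also below P4, and this comparison shares the P4 libraries with the one before. Of the 28 members tested, 19 fell and none rose (1 higher at an unadjusted p under 0.05, 1 by DESeq2 and 1 by limma-voom), while 17.3% of all genes fell, 16% rose and 33.3% changed in either direction. The median log2 fold change was -2.73 over the members and 0.00 over all genes. Col12a1 had 18.9, 24.6 and 12.3 CPM in P6 and lay 14.8-fold below P4 (it fell by 3.89 ± 0.30 on the log2 scale, adjusted p = 1.81e-06, edgeR). Col6a2 reached 24.8, 33.1 and 18.7 CPM in P6, 12.8-fold below P4, and Col1a1 was 9.23-fold below. Col6a3 and Col6a5, 2 further type VI chains, passed here, so that all 4 tested microfibrillar chains fell. Col6a5 was uneven within marks, at 11.6, 54.5 and 49.3 CPM in P4 and 0.167, 8.64 and 1.34 in P6.

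The step from P5 to P6 went both ways, again with shared libraries. Of the 28 members, 6 fell (Col1a1, Col1a2, Col6a1, Col6a2, Col12a1 and Col8a2) and 1 rose (Col14a1), while 8.98% of all genes fell, 8.38% rose and 17.4% changed in either direction. The median over the members was -0.57 and over all genes 0.00. Col1a1 fell by 1.02 ± 0.20 (log2, SE; adjusted p = 0.00426, edgeR) and Col12a1 by 1.21 ± 0.29 (adjusted p = 0.0129). Without the library 4P6, only 2 of these 7 calls passed a threshold of 0.05, Col1a1 and Col1a2. In that fit Col12a1 had an adjusted p of 0.052, Col6a1 0.055, Col6a2 0.062, Col8a2 0.14 and Col14a1 0.051.

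Col14a1, a FACIT chain that binds decorin on fibrils, took its own course. It was at 146, 243 and 133 CPM in P4, at 48.0, 80.5 and 64.0 in P5, and at 104, 133 and 153 in P6. All P5 libraries were below all libraries of the other marks, and P4 and P6 overlapped. It fell by 1.44 ± 0.24 from P4 to P5 (adjusted p = 0.00348, edgeR) and rose by 1.02 ± 0.24 from P5 to P6 (adjusted p = 0.0117). From P4 to P6 its log2 difference was -0.41 ± 0.24, with an adjusted p of 0.211. Per kilobase of the longest coding transcript, the Col14a1 level was 0.122, 0.168 and 0.156 of that of Col1a1 in P4, 0.221, 0.274 and 0.250 in P5, and 0.782, 0.885 and 1.64 in P6. The marks therefore did not overlap in this ratio, which was highest in P6.

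Most of the 21 members that did not pass between P5 and P6 were lower in P6. Among these were Col6a3 (-1.33 ± 0.55, log2, SE), Col8a1 (-0.97 ± 0.34) and Col3a1 (-0.59 ± 0.27). The rest were level or higher in P6 without passing the test. Col4a2 was at 16.6, 19.5 and 31.0 CPM in P6, and its difference from P5 was 0.82 ± 0.27 (log2, SE; adjusted p = 0.0558, edgeR), with DESeq2 giving 0.019. Col15a1, a chain of the zone between basement membrane and stroma, was at 7.37, 7.95 and 2.82 CPM in P4, 4.65, 3.24 and 3.17 in P5, and 7.95, 8.64 and 7.72 in P6. Its P6 minus P5 difference was 1.14 ± 0.37 (adjusted p = 0.0538), with DESeq2 giving 0.024. Col27a1 was at 4.86, 7.55 and 7.52 CPM in P6, all above P5, with a difference of 1.06 ± 0.45 (adjusted p = 0.139). The make-up of the collagen RNA differed between the marks. FACIT chains took 12.7%, 12.5% and 11.6% of the summed collagen CPM in P4 and 23.5%, 25.6% and 32.4% in P6. Col14a1 carried this rise, going from 3.70%, 4.76% and 4.82% to 18.0%, 20.5% and 29.5%, while Col12a1 was at 7.97%, 6.88% and 5.86% in P4 and 3.26%, 3.80% and 2.37% in P6. Fibrillar chains went from 63.4%, 62.7% and 63.3% to 53.5%, 51.9% and 43.7%.

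**Figure D3:**
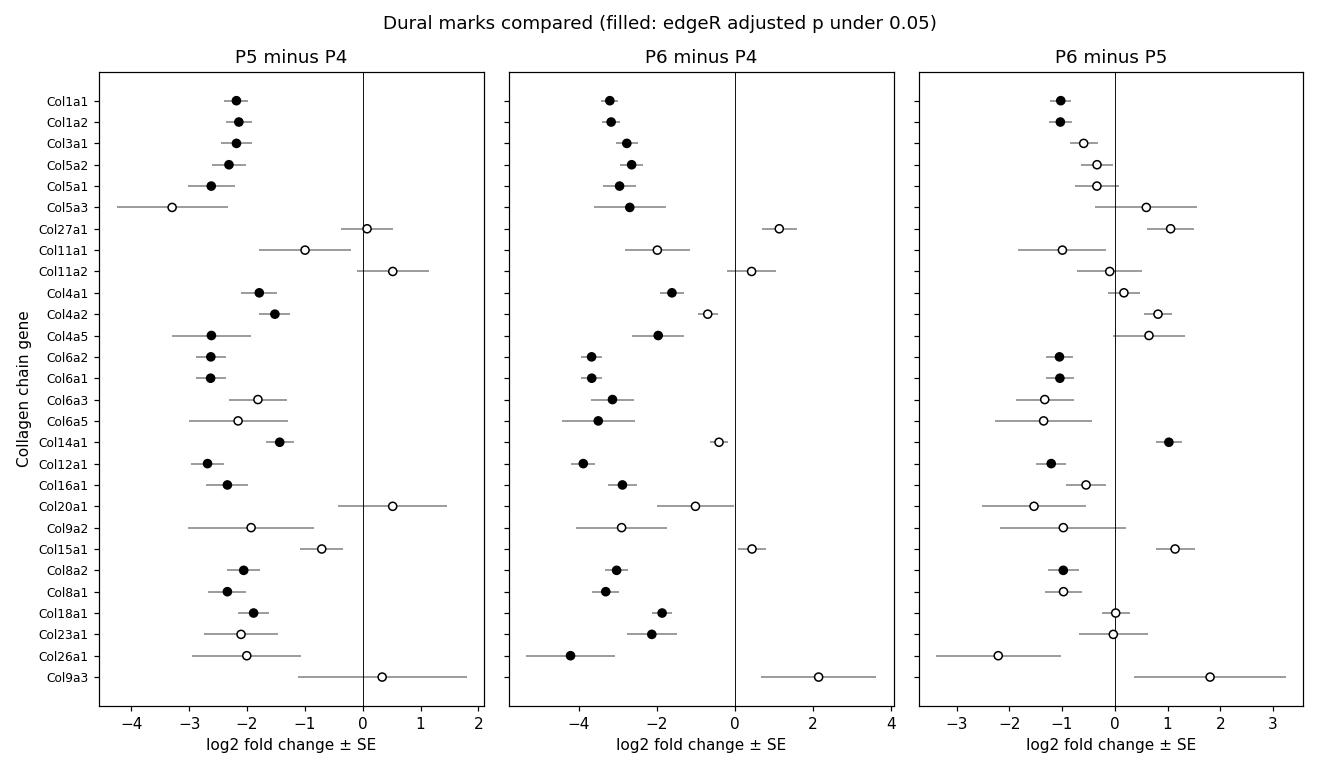
Log2 fold change ± SE (edgeR) of the 28 members tested among the 9 dural libraries, for P5 minus P4, P6 minus P4 and P6 minus P5; filled points have an adjusted p under 0.05 and the comparisons share libraries. Most points lie left of 0 in the first 2 panels (medians -2.08 and -2.73), and Col14a1 is the filled point to the right of 0 in the third.

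Genes that work on collagen moved in part with the chains. Of all genes tested, 4.26% fell from P4 to P5 and 17.3% from P4 to P6. Of 18 collagen-binding matrix proteins, 15 fell from P4 to P5 and 15 from P4 to P6. Sparc, which binds secreted collagen, was at 566, 604 and 372 CPM in P4, 204, 187 and 147 in P5, and 120, 115 and 86.5 in P6, so the marks did not overlap. Of the 10 tested genes for procollagen processing and crosslinking, 6 fell in P5 and 7 in P6. Among them were the N-propeptidase Adamts2, at 97.6, 135 and 64.2 CPM in P4 and 18.5, 25.2 and 18.3 in P5, and the enhancer Pcolce. Of 12 partners in the basement membrane, 7 fell in P5 and 9 in P6, and Nid1, which links laminin to type IV collagen, fell by 2.31 on the log2 scale in P5 (adjusted p = 0.00013, edgeR).

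The intracellular machinery, the uptake genes and the degrading enzymes were counted in the same fits. There 4.26% of all genes fell and 3.09% rose in P5 against P4, and 17.3% fell and 16% rose in P6 against P4. Of 19 genes for folding and modifying procollagen, 6 fell in P5, and 11 fell and 3 rose in P6, with median log2 differences from P4 of -0.19 and -0.42. P4hb, a subunit of prolyl hydroxylase that is also a general protein disulfide isomerase, ranged from 448 to 598 CPM over the 9 dural libraries, with a log2 difference between P5 and P4 of -0.02 (adjusted p = 0.95). Of 10 tested collagen receptors and uptake genes, 1 rose and 4 fell in P5, and 2 rose and 6 fell in P6, with medians of -1.39 and -1.23. Mrc1, a macrophage receptor that takes up collagen, stood at 4432, 4553 and 5196 CPM in P4 and 3636, 4497 and 5186 in P5, which overlap, and at 2082, 2011 and 2155 in P6, below both. Of 12 collagen-degrading enzymes and their inhibitors, 3 rose and 5 fell in P5, and 4 rose and 7 fell in P6, with medians of -0.17 and -0.57. Ctsb, a lysosomal protease, had a log2 difference between P5 and P4 of 0.09 (adjusted p = 0.32).

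Markers of other cell types also differed between the marks, and their part in these results was not tested. For the counts below, 4.26% of all genes fell and 3.09% rose from P4 to P5, and 8.98% fell and 8.38% rose from P5 to P6. The 12 fibroblast markers, a list without collagens, summed to 794 to 1340 CPM in P4, 343 to 432 in P5 and 392 to 478 in P6. The mean fibroblast sum was 388 ± 44.6 CPM in P5 and 434 ± 42.8 in P6, and the collagen sum was 866 ± 138 and 583 ± 63.5 (SD, n = 3 each). Of the 12 fibroblast markers, 6 fell from P4 to P5, with a median log2 fold change of -1.89 over the list. From P5 to P6, 3 fell and 1 rose, with a median of -0.82, so the sum and the median of the list went opposite ways. None of the 12 was at 0 throughout a tissue. Pdgfrb, a mural cell and fibroblast gene, was at 61.5, 89.7 and 49.4 CPM in P4 and 20.7, 18.0 and 14.7 in P5. The osteoblast list of 9 genes summed to 108 to 477 CPM in P4, 48.4 to 106 in P5 and 56.8 to 81.5 in P6, with Alpl at 137, 194 and 83.1 CPM in P4 and 24.1, 27.8 and 24.1 in P5. From P4 to P5, 1 of 6 tested osteoblast markers and 2 of 8 mural cell markers fell. Of the 12 macrophage markers, 5 rose and 0 fell in that comparison. The 8 arachnoid and meningeal markers summed to 197 to 342 CPM in P4 and 70.3 to 118 in the other marks. The 10 endothelial markers summed to 127 to 217 CPM in P4, 62.8 to 208 in P5 and 20.9 to 140 in P6. Dcn, Lum, Dpt and Fbln1 are counted both as fibroblast markers and as collagen-binding proteins.

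**Figure D4:**
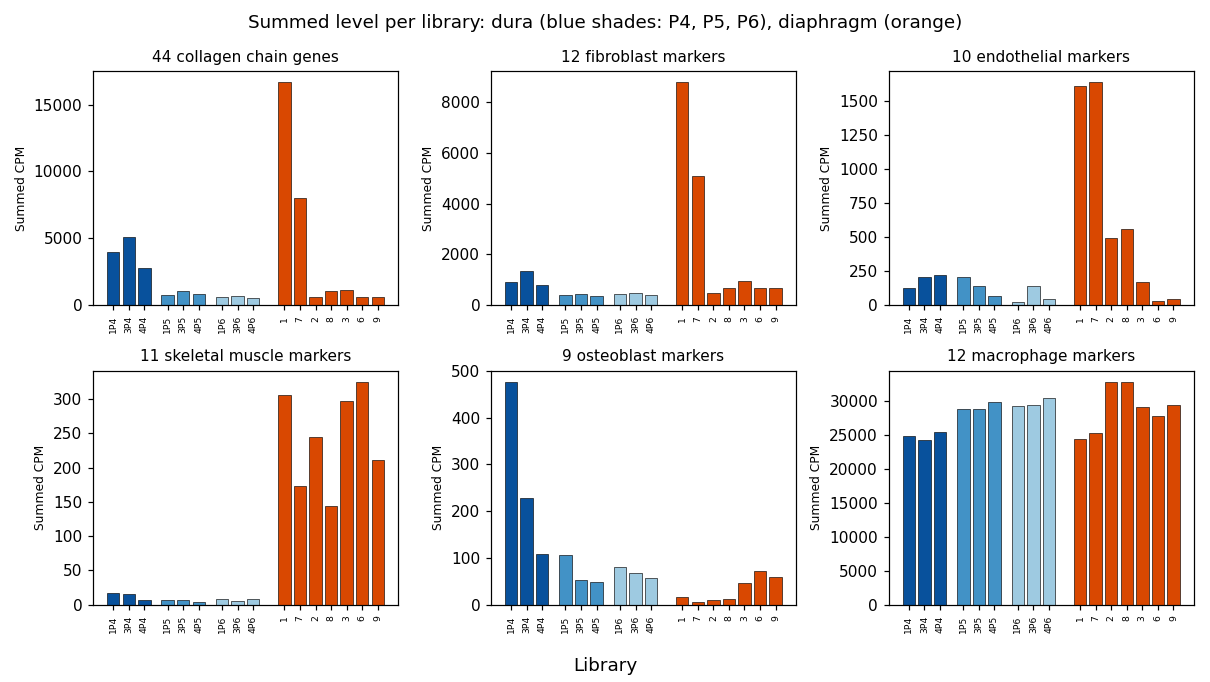
Summed CPM of the 44 collagen chain genes and of 5 lists of cell type markers in each library (bars; dura in blue shades for P4, P5 and P6, diaphragm in orange). Collagens are highest in diaphragm numbers 1 and 7 (16700 and 8001 CPM) and next in the P4 libraries. Macrophage markers lie between 24310 and 32900 CPM, with their lowest sums in those same libraries.

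Within the diaphragm, numbers 1 and 7 stood apart for most abundant chains. The number sets are given as values only, since no label says what they are. Col1a1 was at 4681 and 1988 CPM in numbers 1 and 7, at 152 and 191 in numbers 2 and 8, and at 235, 105 and 98.1 in numbers 3, 6 and 9. Col3a1 was at 4275 and 2006 CPM, then 101 and 214, then 199, 46.9 and 89.9. These 2 genes thus had their lowest value in numbers 1 and 7 at over 5 times the highest of the other 5 libraries. Col6a1 was at 586 and 319 CPM in numbers 1 and 7 and at 9.31 to 41.8 in the others. Col15a1 was at 342 and 175 CPM in numbers 1 and 7, 14.8 and 34.2 in numbers 2 and 8, and 17.4, 19.5 and 7.85 in numbers 3, 6 and 9. Col6a6 was at 73.4 and 50.8 CPM in numbers 1 and 7 and at 0 to 5.94 in the others.

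Col14a1 had another order of levels. It was at 639 and 353 CPM in numbers 1 and 7, at 72.4 and 81.5 in numbers 2 and 8, and at 230, 224 and 194 in numbers 3, 6 and 9. Numbers 2 and 8 were thus lowest. Per kilobase it stood at 0.125 and 0.163 of Col1a1 in numbers 1 and 7, at 0.439 and 0.392 in numbers 2 and 8, and at 0.898, 1.95 and 1.81 in numbers 3, 6 and 9. FACIT chains took 4.49% and 5.37% of the collagen CPM in numbers 1 and 7 and 21.5%, 39.9% and 33.8% in numbers 3, 6 and 9, of which Col14a1 alone was 3.83% and 4.41%, and 20.6%, 39.0% and 32.4%. Col27a1 was nearly even, at 6.56 to 13 CPM over all 7 libraries, and numbers 1 and 7 (9.86 and 6.56) were not its highest.

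Markers of other cells were also high in numbers 1 and 7, and their part was not tested. The fibroblast markers summed to 8810 and 5107 CPM there and to 486 to 937 in the other 5 libraries. The endothelial markers summed to 1604 and 1637 CPM in numbers 1 and 7, 493 and 555 in numbers 2 and 8, and 31.5 to 166 in numbers 3, 6 and 9. The mesothelial markers summed to 116 and 161 CPM in numbers 1 and 7 and to 2.24 to 14.7 in the others. Skeletal muscle markers did not separate numbers 1 and 7: they summed to 306 and 174 CPM there and to 144 to 325 in the others. Osteoblast markers summed to 17.5 and 5.60 CPM in numbers 1 and 7 and to 11 to 72.1 in the others, with Bglap, Bglap2, Sp7, Ibsp and Dmp1 at 0 in every diaphragm library.

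Between tissues, the share of members called was near that of all genes, and the direction changed with the libraries used. None of the 28 tested members had levels without overlap, against 6.9% of all 13136 genes tested. By edgeR, 8 members were lower in dura and none higher (1 higher at an unadjusted p under 0.05, 1 by DESeq2 and 0 by limma-voom), while 15.3% of all genes were lower, 11.2% higher and 26.4% called in either direction. The median log2 difference, dura minus diaphragm, was -1.10 over the tested members and -0.01 over all genes. The 8 were the fibrillar chains Col3a1, Col5a1, Col27a1 and Col11a2, the basement membrane chain Col4a2, the microfibrillar chains Col6a3 and Col6a6, and Col15a1. Library totals in place of TMM moved the median over all genes to 0.13, and the share of calls that were higher in dura from 42.2% to 61.3% (54.3% with upper-quartile factors), with 0 members higher and 7 lower. The tissue fit took each library as a replicate, without a term for mark or number, so differences between marks and number sets enter its spread. With the dural libraries of each number summed, 1 member passed, Col27a1, and with limma-voom 2, Col27a1 and Col11a2.

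Without numbers 1 and 7, 6 members were higher in dura and 4 lower, while of all 13345 genes tested 14.7% were higher, 16.4% lower and 31.2% called in either direction. The median log2 difference was then 0.97 over the members and 0.02 over all genes. Col3a1 had a log2 difference of -3.15 ± 0.92 (SE; adjusted p = 0.0173, edgeR) with all libraries, of -1.98 without number 1 (adjusted p = 0.076) and of -0.24 without both (adjusted p = 0.79). Its dural levels ran from 32.9 through a median of 50.1 to 330 CPM, and its diaphragm levels from 46.9 through 199 to 4275. Col5a1, Col6a3 and Col4a2 also no longer passed without number 1 (adjusted p = 0.14, 0.058 and 0.12) or without both numbers (0.75, 0.49 and 0.51). Without both, Col1a2 and Col6a2 turned from a negative difference that did not pass to one of 1.93 and 2.38 higher in dura that passed (adjusted p = 0.041 and 0.034). They were not the only ones to turn. In that fit 2 of 5 tested microfibrillar chains, Col6a2 among them, were called higher in dura. With all libraries, no tested microfibrillar chain had a positive difference. With P4 left out beside numbers 1 and 7, Col3a1 and Col5a1 passed again, at -1.54 and -1.88 (adjusted p = 0.0082 and 0.018).

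Col15a1, Col6a6, Col27a1 and Col11a2 were lower in dura with and without numbers 1 and 7. With the dural libraries of each number summed, only Col27a1 among them passed. Col15a1 ran from 2.82 through a median of 7.37 to 8.64 CPM in dura and from 7.85 through 19.5 to 342 in diaphragm. Libraries 3P4, 1P6 and 3P6 lay above the lowest diaphragm library, so the tissues overlapped slightly. The Col15a1 difference was -3.88 ± 0.72 (log2, SE), 14.7-fold lower in dura (adjusted p = 0.0008, edgeR), and did not pass with limma-voom (0.073). Col6a6, which can take the place of Col6a3 in type VI microfibrils, was at 0 in 5 of 9 dural libraries and at most 0.689 CPM, while in diaphragm it ran from 0 through 5.34 to 73.4. Col27a1 ran from 1.65 through 4.48 to 7.55 CPM in dura and from 6.56 through 10.3 to 13 in diaphragm, with a difference of -1.28 ± 0.30 (adjusted p = 0.00452), which did not pass without numbers 3, 6 and 9 (-1.09, adjusted p = 0.053). Col11a2, a chain known from cartilage, was at 0.609 to 1.95 CPM in dura and 1.32 to 7.80 in diaphragm.

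Col12a1, Col8a1 and Col8a2 leaned the other way. Col12a1 ran from 12.3 through a median of 43.7 to 351 CPM in dura and from 2.31 through 3.59 to 70.8 in diaphragm. Its difference of 2.52 ± 0.96 (log2, SE) did not pass (adjusted p = 0.0625, edgeR) and passed without number 1 (3.34, adjusted p = 0.021) or number 7 (2.95, adjusted p = 0.044). Col8a2 ran from 8.86 to 129 CPM in dura and from 0 to 64.0 in diaphragm, with 0 counts in number 9, which allows up to 0.137 CPM. Without numbers 1 and 7 its difference was 5.25 (adjusted p = 0.00099), and that of Col8a1 3.33 (adjusted p = 0.0075). With P4 left out as well, these 3 genes remained higher in dura, with differences of 3.14 for Col12a1, 3.97 for Col8a2 and 1.82 for Col8a1.

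Proportions between chains were compared within each library. Each count, with 0.5 added, was divided by that of Col1a1. This ratio separated the tissues without overlap for 5 of the 27 other tested members, against 1.26% of all 13135 genes, where 0.883% were higher and 0.381% lower in dura. Col1a1 itself ran from 86.0 to 1329 CPM in dura and from 98.1 to 4681 in diaphragm. Genes that do not vary with it therefore overlap readily in this ratio, so the share of all genes is no like baseline for the members. No p-value is given for these ratios. Col12a1, Col8a1, Col8a2 and Col6a2 were higher in dura relative to Col1a1, and Col3a1 was lower. With the summed collagens as denominator, Col12a1, Col8a1 and Col8a2 were higher and Col3a1 lower. With Col1a2 as denominator, Col5a1, Col6a3 and Col15a1 were lower beside Col3a1, and Col6a2 overlapped.

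Per kilobase of coding transcript, Col3a1 stood at 0.197 to 0.453 of Col1a1 in dura and at 0.476 to 1.2 in diaphragm. The gap between the highest dural library, 4P6, and the lowest diaphragm library, number 6, was small. Col12a1 stood at 0.0742 to 0.148 of Col1a1 in dura and at 0.00779 to 0.0179 in diaphragm. Its lowest dural ratio was thus over 4 times the highest in diaphragm. Col8a2 stood at 0.0916 to 0.203 in dura and at 0.00330 to 0.0241 in the 6 diaphragm libraries with a count. Col8a1 stood at 0.0503 to 0.123 in dura and 0.0105 to 0.0360 in diaphragm.

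Chains that assemble with each other were compared in the same way, in pairs picked after the values were seen. Col1a2 stood at 1.07 to 1.22 of Col1a1 per kilobase in dura and 0.619 to 1.24 in diaphragm, which overlap. With merged exons as the length, which are longer for Col1a2, the same ratio was 0.511 to 0.580 in dura, so its absolute size depends on the gene model. Col6a2 to Col6a1 was 0.884 to 1.25 in dura and 0.533 to 1.63 in diaphragm, which overlap too. Col5a2 to Col5a1 was 2.10 to 4.19 in dura and 0.747 to 1.62 in diaphragm, without overlap. Col6a3 to Col6a2 was lower in every dural library than in any diaphragm library. With Col6a1, the other partner, as denominator the tissues overlapped slightly, as library 3P6 lay just above diaphragm number 6. Col4a2 to Col4a1 was 0.649, 0.580 and 0.581 in P4 and 1.27, 1.08 and 1.10 in P6, while in diaphragm it was 0.671 and 0.753 in numbers 1 and 7 and 1.2, 1.81 and 1.54 in numbers 3, 6 and 9.

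**Figure D5:**
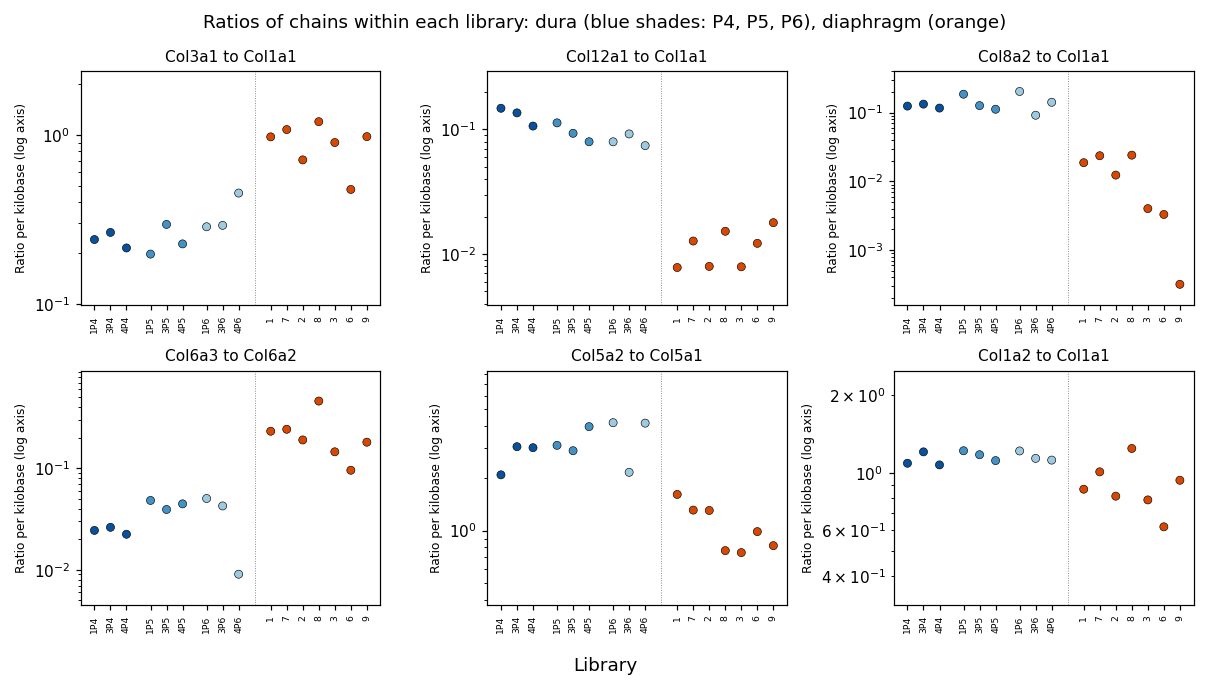
Ratio of chains per kilobase of coding transcript within each library (log axes, 0.5 added to each count), dura in blue shades and diaphragm in orange. Col3a1 to Col1a1 and Col6a3 to Col6a2 are lower in every dural library. The ratios of Col12a1 and Col8a2 to Col1a1 and of Col5a2 to Col5a1 are higher, and Col1a2 to Col1a1 overlaps.

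Markers of tissue-specific cells differed between dura and diaphragm beside these proportions, and their part was not tested. Alpl was at 12.4 to 194 CPM in dura and at most 4.36 in diaphragm, Sp7, a regulator of osteoblasts, had counts in every dural library and none in diaphragm, and Ptgds and Zic1, of the meningeal list, had none in diaphragm. These are single members named after their values were seen. In the tissue fit (edgeR), 4 of 7 tested arachnoid and meningeal markers were higher in dura and 0 lower. Of 5 tested osteoblast markers, 3 were higher and 0 lower, while 11.2% of all genes were higher. The sums of both lists nevertheless overlapped. The arachnoid and meningeal sum was 126 to 132 CPM in numbers 3, 6 and 9, above every P5 and P6 library, and the osteoblast sum reached 72.1 in number 6, within the dural range of 48.4 to 477. Skeletal muscle markers summed to 4.27 to 16.5 CPM in dura and 144 to 325 in diaphragm, with Mb at 0 in every dural library. Of the 18 collagen-binding proteins, 6 were lower in dura with all libraries (15.3% of all genes were lower). Without numbers 1 and 7, 8 were higher and 3 lower, while 14.7% of all genes were higher and 16.4% lower. Fibronectin (Fn1) was at 13.7 to 365 CPM in dura and 224 to 1802 in diaphragm, and the crosslinking enzyme Tgm2 at 20.1 to 65.8 against 212 to 679. Mrc1 was higher in dura by 1.14 on the log2 scale (adjusted p = 0.0027, edgeR).

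The remaining 16 members had too few counts for the tissue test. The highest level among them was 8.71 CPM, for the FACIT chain Col9a3 in library 1P6, and the other P6 libraries had 0.623 and 0.403. Col2a1, the main chain of cartilage collagen, had 22 counts over all dural libraries and 1 in diaphragm, and was highest in library 4P4 at 0.775 CPM. Col9a1, a partner of type II collagen, had 68 counts in dura and 0 in diaphragm, which makes its pooled level at least 28-fold higher in dura against a limit of 3 counts over the diaphragm libraries. Col24a1 had 8 counts in dura and 0 in diaphragm (3.3 times that limit), and Col10a1, a marker of hypertrophic cartilage, had 3 and 0. Col4a3, Col4a4 and Col4a6, the type IV chains of specialised basement membranes, had 38, 14 and 53 counts in dura and 134, 280 and 159 in diaphragm. Their highest levels were 3.41, 5.59 and 5.38 CPM, in number 1 for Col4a3 and Col4a4 and in number 7 for Col4a6. The limit covers the counting error of a count of 0 alone, since repeat reads of 1 molecule were not marked. The error of the dural counts is not in these folds, so they are not lower bounds.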

How the data were processed

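The deposited table holds counts per gene made by the authors. It is called normalised, and was read as raw counts because its values are whole and its totals differ. Named in the submitters' processing notes are the GRCm38 build, featureCounts, STAR 2.4.0j and DESeq2 1.20.0. Libraries were unstranded 75-nucleotide single-end reads, per the labels' protocols. In 6 pairs of diaphragm columns of 1 number, counts agreed within sampling noise (chi-square per degree of freedom 1.008 to 1.169, against at least 10.56 for other pairs), and they were summed as 1 library. The 2 columns with fewer than 10000 counts (numbers 4 and 5) were left out.

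Genes passing filterByExpr were tested with edgeR 4.0.16 in R 4.3.3 (TMM factors, quasi-likelihood test, two-sided, threshold 0.05), in 1 fit for the tissues and 1 for the dural marks. The test was checked on simulated data. Lengths are those of the longest coding transcript in GENCODE vM21, and promoters come from RefSeq (GRCm38.p6), where Col1a1, Col5a2, Col12a1 and Col14a1 had no entry in the table used. Alternatives were no filter, library totals, upper-quartile and RLE factors, DESeq2 1.42.0, limma-voom 3.58.1, other sets of libraries and a replicate block. The genes named are the 4 most abundant fibrillar members and the 3 most abundant of each other chain group, members whose call differed from most of their group, and up to 4 abundant genes of each list. Members named beyond that rule (Col6a5, Col9a3 and the members with few counts), the pairs of chains and the 4 promoters were chosen after their values were seen. Members and lists were chosen with earlier results of these data known.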

Additional observations from a re-analysis of the deposited data

Results flagged for a closer look

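In 4 of 50 groups tested, 1 library lay far from its group, where chance flags about 5% of groups of like libraries. The groups are whole tissues that mix marks or number sets of unlike level, so that share is no baseline here. In diaphragm, Col1a1 was at 4680 CPM in number 1, with the nearest other library at 1990, and Col5a2 at 263 CPM in number 1, with the nearest at 114. In dura, library 3P4 had 6.38 CPM of Col4a5, with the nearest at 3.04, and 0.688 CPM of Col6a6, with the nearest at 0.338.

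The near-empty diaphragm columns also held collagen counts. There were 5 among the 1496 counts of number 5 (0.334%, exact binomial 95% interval 0.109% to 0.778%) and 6 among the 2115 counts of number 4 (0.284%, 0.104% to 0.616%). These columns have no control of their own and were set only against the limit of 3 counts that a count of 0 allows.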

How the results depend on the processing

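Between tissues, the 8 members called became 2 with limma-voom, 1 with the dural libraries summed per number (where 1259 genes were called in all), 4 without P5 (2143 genes in all), and 5 without P6. Without numbers 1 and 7, Col1a2 turned to 1.93 and Col6a2, 1 of 2 microfibrillar chains then called higher, to 2.38, higher in dura. Leaving out each library gave 2968 to 3585 genes and 5 to 9 members, the lowest without number 1. Fitting the marks with the diaphragm libraries included, whose spread is wide, left 3 genes and 0 members for P5 against P4, 1292 and 0 for P6 against P4, and 173 and 0 for P6 against P5. Without the filter, 1587 genes were called for P5 against P4 and 13 members for P6 against P5. Limma-voom called 4 members for P6 against P5. Leaving out each library gave 544 to 1136 genes and 15 to 18 members for P5 against P4, 3717 to 4531 and 16 to 21 for P6 against P4, and 1480 to 2503 and 2 to 10 for P6 against P5. The 544 genes came without 3P5, as did the 1480, and leaving out 3P4 gave 557 and 4P5 607. Library totals moved the median log2 difference over all genes by -0.13 in both comparisons with P4 and the share of calls that rose from 42.0% to 22.3% in P5 and from 48.1% to 34.8% in P6. With a replicate block for the dural number, 1576 genes and 19 members passed for P5 against P4, 5116 and 20 for P6 against P4, and 3070 and 12 (3 higher, 9 lower) for P6 against P5. Libraries of 1 number correlated by -0.005 to 0.171 in their deviations, mostly positive. Libraries of different numbers correlated by -0.176 to 0.132, mostly negative. Deviations were taken from the mean of each mark, so both sets of correlations offset each other and are not separate observations. Not every library correlated best with its own number and no label states a pairing, so the numbers were not taken as pairs. A shared effect of the number was not tested. The fit without P4 and numbers 1 and 7, and the other denominators of the ratios, were chosen after seeing the data. The causes of these shifts were not tested.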
